A study of Mus musculus with 4 samples.

Results

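Runx3 peaks that CUT&RUN found at gene edges and ChIP did not were examined in CD8 T cells of the mouse. A member was a CUT&RUN peak on chromosomes 1 to 19 or X that overlapped no ChIP peak and whose summit, its highest point, lay within 1 kb of either end of a RefSeq gene. There were 2619 members among the 15712 CUT&RUN peaks on these chromosomes (16.7%, 95% interval 16.1 to 17.3), and among the 6671 CUT&RUN peaks with a summit at a gene edge they made up 39.3% (38.1 to 40.4). Members were chosen by the overlap of the peaks as called and by the distance of the summit to the edge, so their number, gap to ChIP peaks, height and width are a description. The 4052 CUT&RUN peaks at gene edges that did overlap a ChIP peak are called shared edge peaks and serve for comparison.

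All cells were wild-type CD8 T cells taken from adult spleen with magnetic beads against CD8a. The ChIP library came from 50000000 cells of 5 mice that were frozen, thawed and sonicated. The CUT&RUN library came from 150000 fresh cells of 1 mouse. In CUT&RUN an antibody brings micrococcal nuclease to its target in intact nuclei, and only the DNA cut out there is sequenced. The same rabbit serum against Runx3 was used in both at 1 in 200, with 12 PCR cycles. There was 1 library per assay, so no difference between assays has a replicate check. Per the file headers, ChIP peaks came from 9532996 fragments left after duplicate removal, with a q threshold of 0.05 and a whole cell extract as control. CUT&RUN peaks came from 14068364 fragments of an alignment named for nucleosome-free DNA, with a threshold of 1e-05 and no control. Assay, cell number, freezing, mice, control and threshold changed together and cannot be told apart. The CUT&RUN control with normal serum was not analysed here, so the members' level in it was not tested.

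Runx3 is a DNA-binding protein of the RUNX family. It binds with its partner Cbfb to a short core sequence, silences Cd4 in the CD8 lineage and takes part in the cytotoxic programme. Promoters of widely active genes carry other short elements near the start, among them the CCAAT box, which the trimeric factor NF-Y binds, the GC box of the Sp family and the ETS core. A peak at a promoter shows occupancy by antibody-linked signal and does not measure expression of the gene.

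The stretches below show what the DNA under member summits looks like. Polr3k, Cables2, Thop1, Prpf6, Slc9a3r1 and E2f3 are the highest named members whose summit lay in a reference promoter window outside any gene, and Polr3k was the only one of them with a RUNX core. Zfp664, tied with E2f3 at a pileup of 42 and without a RUNX core or CCAAT box, is not shown. H2bc18 and Cd8a were added after their values were seen, because the histone genes and the CD8 coreceptor return below. Each runs 5′ to 3′ on the strand of the gene, is at most 101 bases long and is taken from RefSeq promoters of GRCm38.p6 (mm10). Capitals mark a RUNX core (TGTGGT or TGCGGT) or a CCAAT box, on either strand, so that a box on the other strand reads ATTGG.
Polr3k: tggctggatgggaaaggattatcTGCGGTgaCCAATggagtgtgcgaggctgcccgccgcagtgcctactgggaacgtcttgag
Cables2: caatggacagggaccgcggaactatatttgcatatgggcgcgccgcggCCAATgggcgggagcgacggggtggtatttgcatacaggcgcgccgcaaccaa
Thop1: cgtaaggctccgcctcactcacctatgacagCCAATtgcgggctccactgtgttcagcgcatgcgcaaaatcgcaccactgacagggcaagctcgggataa
Prpf6: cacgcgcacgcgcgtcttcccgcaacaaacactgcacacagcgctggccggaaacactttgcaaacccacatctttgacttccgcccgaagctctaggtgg
Slc9a3r1: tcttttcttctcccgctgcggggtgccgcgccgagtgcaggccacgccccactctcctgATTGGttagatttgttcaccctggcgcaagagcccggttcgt
E2f3: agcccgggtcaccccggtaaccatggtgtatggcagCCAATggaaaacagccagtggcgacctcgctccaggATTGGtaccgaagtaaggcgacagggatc
H2bc18: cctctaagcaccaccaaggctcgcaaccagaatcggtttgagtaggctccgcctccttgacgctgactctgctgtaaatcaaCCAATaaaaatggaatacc
Cd8a: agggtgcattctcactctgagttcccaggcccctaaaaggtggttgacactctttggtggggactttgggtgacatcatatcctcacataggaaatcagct

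In mm10 these stretches are chr2:181864276-181864359 (plus strand) for Polr3k, chr2:180273596-180273696 (minus) for Cables2, chr10:81069915-81070015 (plus) for Thop1 and chr2:181601211-181601311 (plus) for Prpf6. Slc9a3r1 is at chr11:115163155-115163255 (plus), E2f3 at chr13:29986144-29986244 (minus), H2bc18 at chr3:96269539-96269639 (plus) and Cd8a at chr6:71373317-71373417 (plus). The summit is base 51 of each. All 8 lie upstream of the gene start, in no annotated gene. Of these, 6 hold at least 1 CCAAT box, E2f3 holds 2, and Prpf6 and Cd8a hold neither element.

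Members were lower than shared edge peaks. Height is given as the pileup, the number of fragments over the summit after duplicate removal. Member pileups ran from 8 to 351 with a median of 18 (quartiles 14 and 25). Shared edge peaks had a median of 29 (20 and 45), and CUT&RUN-only peaks away from gene edges had 18 (14 and 25). A pileup of 30 or more was reached by 440 members (16.8%) and by 2009 shared edge peaks (49.6%). Members were narrower, with a median width of 131 bp against 183 bp, and had a median fold over the local background of 10.9 against 14.5. The ranges of the classes overlapped over most of their span.

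**Figure D1:**
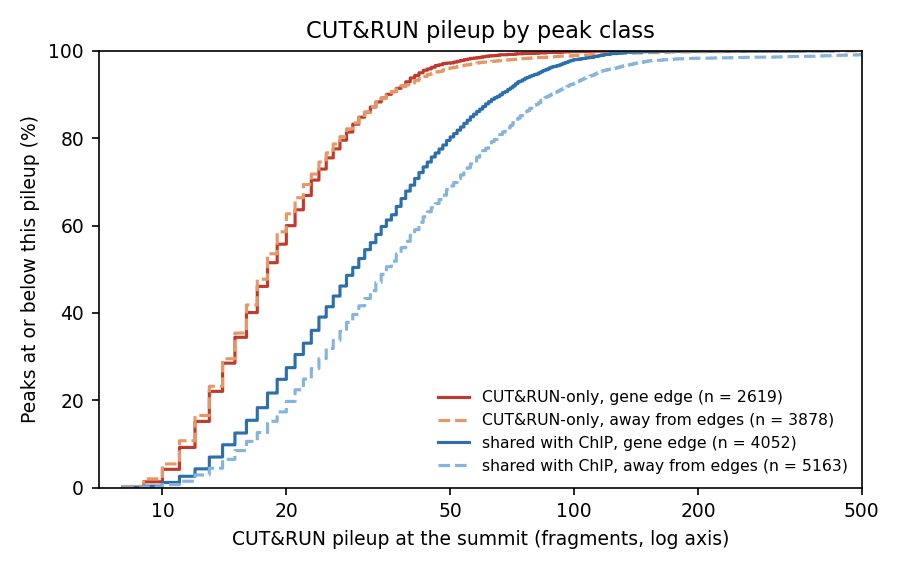
Cumulative share of CUT&RUN peaks (percent, vertical axis) at or below a given pileup (fragments, log axis) for 4 classes of peak. Both CUT&RUN-only classes have a median of 18, to the left of the shared classes with medians of 29 and 35.

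Most members lay well away from any ChIP peak. The gap between the ends of the peaks had a median of 18884 bp (quartiles 3277 and 54857 bp). It was at most 100 bp for 135 members (5.15%, 4.34 to 6.07), at most 1 kb for 531 (20.3%, 18.7 to 21.9) and at most 10 kb for 994 (38%). At the limits of the rule, members at Fam133b and Psmd12 lay 1 bp from a ChIP peak, whereas peaks at Kpna4 and Klhl24 overlapped one by 1 and 2 bp and were shared. The summits at Gm34376 and Cdk2ap2 lay 999 and 1000 bp from the edge, and those at Fam161a and Kif13a, at 1003 and 1005 bp, were left out. A peak common to both assays lay in the gene of the nearest edge, taken with 10 kb on each side, for 960 members (36.7%, 34.8 to 38.5).

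The gene edges were mostly starts. Strand could be read from the promoter table for 2033 members, and for 1875 of these (92.2%, 91 to 93.4) the nearest edge was the start. Among shared edge peaks the share was 93.4% (92.5 to 94.2), and the difference of -1.15 percentage points had an interval of -2.64 to 0.268. At starts, member summits had a median position of -25 bp (quartiles -96 and 83.5), where negative means upstream, against -19 bp (-97 and 75). Within 250 bp of the start lay 76.1% of them against 76.8% (difference -0.648 points, -3.12 to 1.79). Upstream of the start lay 58.3% against 56.4% (difference 1.89 points, -0.967 to 4.74). All 3 intervals include 0. They cover counting error only, since peaks of 1 library are not replicates.

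**Figure D2:**
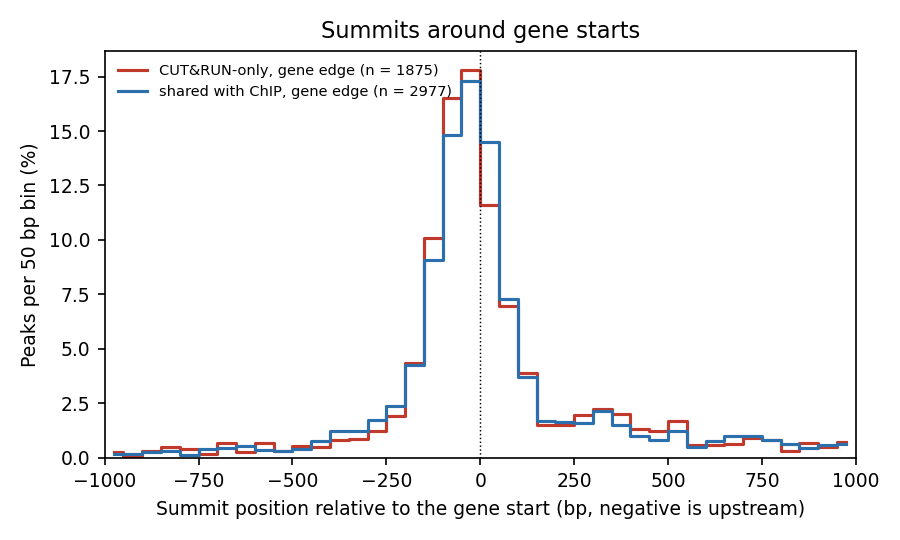
Position of CUT&RUN summits relative to the gene start (bp, negative is upstream) in bins of 50 bp, as a percentage of the 1875 members and 2977 shared edge peaks whose nearest edge was a start of known strand. Both lines rise to their highest bins just upstream of the start.

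The main gene types had similar shares. The nearest gene was protein-coding for 2138 members (81.6%, 80.1 to 83.1) and for 81.9% of shared edge peaks (difference -0.227 points, -2.14 to 1.66). It was a long non-coding RNA gene for 347 members (13.2%) against 14.3% (difference -1.09 points, -2.76 to 0.62). Edges of 2 or more genes lay within 1 kb of 29.4% of members and 30.2% of shared edge peaks. Starts of divergent genes, which share a promoter region, lay within 1 kb of 10.6% and 11.5%. Antigen receptor V segments were nearest to 31 members (1.18%, 0.806 to 1.68) and 22 shared edge peaks (0.543%, 0.341 to 0.821). Of the other rare classes, pseudogenes made up 1.45% of members and 0.962% of shared edge peaks, small nuclear RNAs 0.725% and 0.642%, microRNAs 0.611% and 0.444%, and tRNAs 0.267% and 0.42%.

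The X chromosome held 99 members (3.78%, 3.08 to 4.58) and 50 shared edge peaks (1.23%, 0.917 to 1.62), and the intervals did not overlap. Away from gene edges the X chromosome likewise held 2.81% of CUT&RUN-only peaks and 1.07% of shared ones. The ChIP cells came from 5 mice and the CUT&RUN cells from 1, and the part of the mice in this difference was not tested.

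Motif content, which the rule did not use, separated members from shared edge peaks. It could be read for the 1379 members (52.7%) and 2188 shared edge peaks (54%) whose summit lay in a promoter window, which runs from 250 bases before to 50 bases after a start. Within the peak sequence held, a RUNX core was found in 10.6% of members (9.01 to 12.3) and in 32% of shared edge peaks, a difference of -21.5 points (-23.9 to -18.9). Members' stretches were also shorter, with a median of 137 bases held against 176. At equal length, within 50 bp of the summit, a RUNX core stood in 97 of 1174 members (8.26%, 6.75 to 9.99) and in 436 of 1807 shared edge peaks (24.1%, 22.2 to 26.2). The difference was -15.9 points (-18.4 to -13.3). Across all promoter windows cut into 101-base stretches the share was 7.92% (7.75 to 8.09) and lay within the members' interval. Over whole 300-base windows the order was different, with a RUNX core in 16% of the windows over member summits (14.1 to 18.1), 37.8% of those over shared edge peaks (35.8 to 39.9) and 22.3% of all promoter windows (21.9 to 22.8).

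The CCAAT box went the other way. It stood within 50 bp of the summit in 484 of 1174 members (41.2%, 38.4 to 44.1) and in 495 of 1807 shared edge peaks (27.4%, 25.3 to 29.5), a difference of 13.8 points (10.3 to 17.3). All promoter stretches had 15.3%. Stretches with at least 2 boxes, as at E2f3, made up 14% of members (12 to 16.1) and 6.64% of shared edge peaks (5.54 to 7.89). Over the whole peak sequence held, the shares were 44.5% and 36.5%, a difference of 8.01 points (4.7 to 11.3). Over whole 300-base windows they were 56.1% and 44.5%, against 37.6% of all promoter windows.

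Elements common in active promoters were present in both classes. The GC box (GGGCGG) stood in 46.6% of members and 49.7% of shared edge peaks, against 17.3% of all promoter stretches (difference between the classes -3.1 points, -6.76 to 0.569). The ETS core (CCGGAAG) stood in 9.11% and 11.4%, against 3.11% (difference -2.29 points, -4.45 to -0.0292). The E-box (CACGTG) stood in 5.79% and 5.92%, against 2.45%. The longer words were rare in every set. The CRE (TGACGTCA) was found in 1.79% and 2.38%, against 0.58%. The palindromic NRF1 site, which the Thop1 stretch above holds, was found in 1.36% and 0.719%, against 0.317%. The CTCF core (AGGGGGCGC) was found in 0.852% and 0.719%, against 0.395%. The octamer (ATTTGCAT), present in the Cables2 stretch, was found in 0.767% and 0.498%, against 0.579%. The YY1 core was found in 0.17% and 0.443%, against 0.212%. The B box of tRNA genes was in none of the 1174 member stretches, which allows a share of up to 0.314%. All were searched on both strands, and a match is a description of the letters, not a bound site. The elements were counted separately, so a stretch can count under several, and the GC box and CTCF core can overlap (GGGCG is in both).

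**Figure D3:**
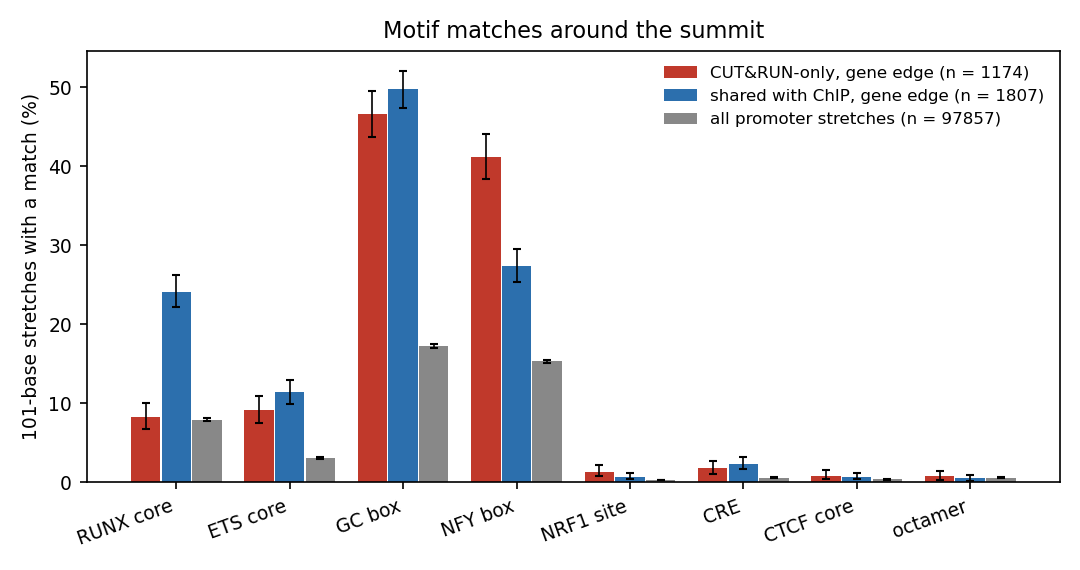
Share of 101-base stretches (percent) with a match to each of 8 elements, for members (red), shared edge peaks (blue) and all promoter stretches (grey), with exact 95% intervals as error bars. The RUNX core is at 8.26% in members and 24.1% in shared edge peaks, and the NFY box, the CCAAT word, at 41.2% and 27.4%.

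Members and shared edge peaks were then compared within classes of pileup, in a split chosen after the values were seen. The class of 30 or more has no upper limit, so heights within it are not equal. Over all peaks in it, 74 of 440 members and 832 of 2009 shared edge peaks reached a pileup of 50. Among peaks with a pileup under 15, the RUNX core stood in 6.52% of members and 13.2% of shared edge peaks, and the intervals (4.08 to 9.8 and 8.64 to 19) touched. From 15 to 19 it stood in 5% and 17.9%, from 20 to 29 in 7.92% and 20.6%, and at 30 or more in 16.1% (11.4 to 21.8) and 29.9% (26.9 to 33). The highest members therefore exceeded the 7.92% of all promoter stretches. The CCAAT box stood in 29.2%, 32.7%, 48.1% and 60.7% of members over the same classes of pileup. In shared edge peaks the values were 17.6%, 21.4%, 22.6% and 33.6%. With members split by pileup into 5 classes, the CCAAT share ran from 29.9% in the lowest to 59.1% in the highest, and the RUNX share from 4.79% to 14.3%.

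**Figure D4:**
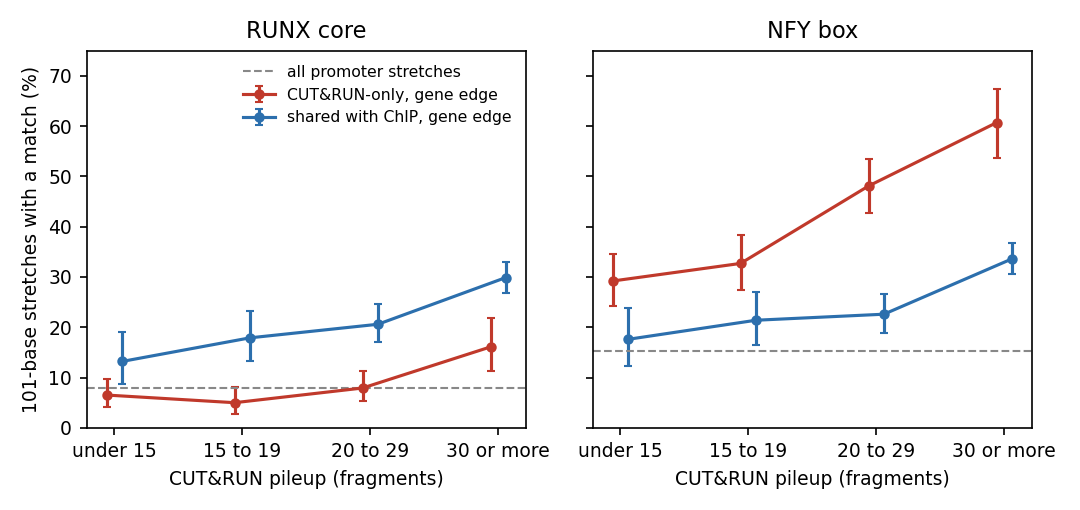
Share of 101-base stretches (percent) with a RUNX core (left) or an NFY box (right) by CUT&RUN pileup class in fragments, for members (red) and shared edge peaks (blue) with exact 95% intervals, and the level of all promoter stretches (dashed). At a pileup of 30 or more, the NFY box is at 60.7% in members and 33.6% in shared edge peaks.

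Base composition and position differed little between the classes. Median GC content within 50 bp of the summit was 63.4% in members and 65.3% in shared edge peaks, against 53.5% in all promoter stretches and 56.4% in those of protein-coding genes. At a GC content of 60% to 70%, the CCAAT box stood in 38.8% of members, 27% of shared edge peaks and 14.9% of all promoter stretches, and the RUNX core in 8.9%, 26% and 8.08%. For summits about 100 bases upstream of the start, the CCAAT box stood in 45.3% of 232 members (38.7 to 51.9) and 30% of 337 shared edge peaks (25.1 to 35.2), and in 20.1% of all protein-coding promoters at that position. The RUNX core there stood in 10.3%, 23.4% and 7.34%. Neither element was gathered at member summits. Of the CCAAT boxes around member summits, 34.2% (30.6 to 37.9) lay within 15 bp of the summit, against 32% for an even spread, and of the RUNX cores 26.5% (18.1 to 36.4) against 31.2%. Among shared edge peaks, 35% of RUNX cores (30.7 to 39.5) lay that close. Members within 1 kb of a ChIP peak had a RUNX core in 5.64% (2.85 to 9.87), and those farther away in 8.78% (7.09 to 10.7).

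Members touched 2562 of 21631 protein-coding genes (11.8%, 11.4 to 12.3), counting every gene with an edge within 1 kb of a member summit. Shared edge peaks touched 3753 (17.4%), and 368 genes had both. Of the 5947 protein-coding genes with any CUT&RUN edge peak, 43.1% had a member. These shares are the background for the gene lists. The lists hold genes of known role, were drawn up with earlier results of these data known, and give counts without a test. Neighbouring genes can share 1 peak.

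**Figure D5:**
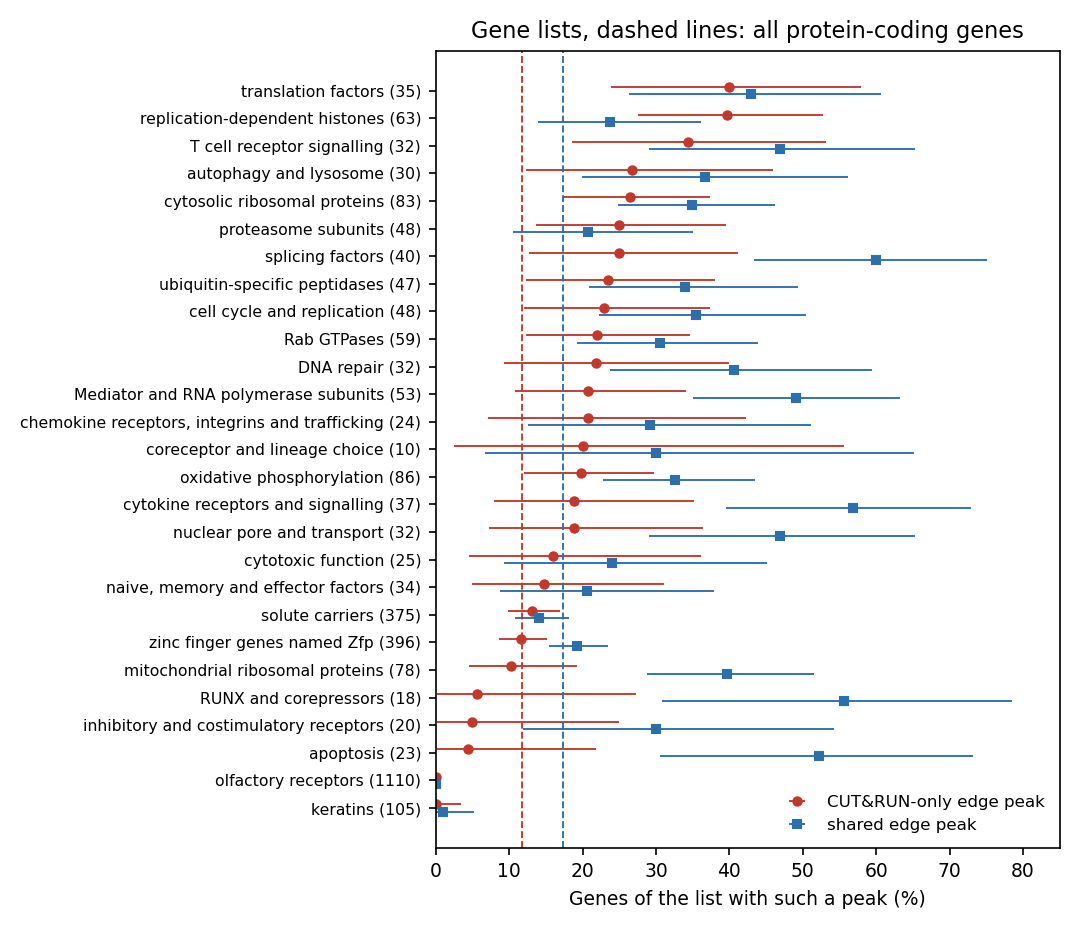
Share of the genes of each list (percent, number of genes in brackets) with a CUT&RUN-only edge peak (red circles) or a shared edge peak (blue squares), with exact 95% intervals. Dashed lines mark all protein-coding genes at 11.8% and 17.4%, and the histone list is at 39.7% with members and 23.8% with shared peaks.

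Replication-dependent histone genes, which package DNA made in S phase, had members more often than shared edge peaks. Members lay at 25 of 63 genes (39.7%, 27.6 to 52.8), against 11.8% of all protein-coding genes, and shared edge peaks at 15 (23.8%). Of the 35 histone genes with any CUT&RUN edge peak, 71.4% (53.7 to 85.4) had a member, against 43.1% over all genes. The 25 genes rest on 17 peaks with pileups from 10 to 41, because the genes lie in clusters. The intervals count each gene separately and are therefore too narrow. A CCAAT box stood in 11 of the 13 histone stretches that could be read, against 41.2% over all members, and a RUNX core in none. The highest lay between H3c13 and H2bc18, 111 bp upstream of H2bc18, with a pileup of 41 (29.4 to 55.6). Next was H2ac23 with a pileup of 37.

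Genes of cell growth and division carried members at or above the background of 11.8%, and shared edge peaks above theirs of 17.4%. Of the genes with any CUT&RUN edge peak, 48.3% of translation factors (29.4 to 67.5) had a member. For cytosolic ribosomal proteins this was 44% (30 to 58.7), and for cell cycle and replication genes 39.3% (21.5 to 59.4). All 3 intervals include the 43.1% of all genes. Translation factors had members at 14 of 35 genes (40%, 23.9 to 57.9) and shared edge peaks at 15, led by Eif4e, the cap-binding protein, with a pileup of 30, Eif4g1 with 28 and Eif5b with 26. Cytosolic ribosomal proteins had members at 22 of 83 (26.5%) and shared peaks at 29. Rps29 led with a pileup of 93 (75.1 to 114), followed by Rps15a with 31 and Rpl41 with 30. The peak near Rps29, whose nearest gene is the small RNA gene Rn7s1, was separated by 223 bp from a ChIP peak. Cell cycle and replication genes had members at 11 of 48 (22.9%) and shared peaks at 17. None of the 28 with any CUT&RUN edge peak had both, against 368 of 5947 over all protein-coding genes. The translation factor list likewise had no gene with both. E2f3, a cell cycle transcription factor, had a pileup of 42, Rpa1, a single-strand DNA binding protein, 40, and Ccna2, a cyclin, 33. A CCAAT box stood in 6 of the 7 cell cycle stretches read, in 2 of 8 of translation factors and in 3 of 12 of cytosolic ribosomal proteins, against 41.2% over all members.

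At mitochondrial ribosomal protein genes, shared edge peaks outnumbered members. Members lay at 8 of 78 (10.3%, 4.53 to 19.2) and shared peaks at 31 (39.7%). Of the 38 with any CUT&RUN edge peak, 21.1% (9.55 to 37.3) had a member, below the 43.1% of all genes. Mrpl51 led with 54, then Mrpl36 with 33 and Mrps16 with 30. Oxidative phosphorylation had members at 17 of 86 (19.8%) and shared peaks at 28. Atp5b, a subunit of the ATP synthase, had a pileup of 34 and 3 CCAAT boxes around its summit. Ndufs6 had 33, from the peak it shares with Mrpl36, and Ndufv3 had 24. Proteasome subunits had members at 12 of 48 (25%) and shared peaks at 10, led by Psma5 with 30, Psmb6 with 29 and Psme2 with 26. Both lists compare with 11.8% of all protein-coding genes. Counting only genes with any CUT&RUN edge peak, 39.5% (25 to 55.6) of oxidative phosphorylation and 54.5% (32.2 to 75.6) of proteasome genes had a member. These intervals include the 43.1% of all genes.

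In the machinery of transcription, RNA processing and repair, shared peaks outnumbered members, as they do over all protein-coding genes. Splicing factors had members at 10 of 40 (25%) and shared peaks at 24, with Snrpa at a pileup of 55, Prpf6 at 48 and Hnrnpa1 at 35, and none of the 7 stretches read held a CCAAT box. Mediator and RNA polymerase subunits had members at 11 of 53 (20.8%) and shared peaks at 26. Polr3k, a subunit of RNA polymerase III, had 52, Med29 46 and Med19 30. Nuclear pore and transport genes had members at 6 of 32 (18.8%) and shared peaks at 15, led by Kpnb1 with 51, Tpr with 35 and Kpna1 with 26. DNA repair genes had members at 7 of 32 (21.9%) and shared peaks at 13. Brca1, which acts in repair of double-strand breaks, had a pileup of 29. Of the genes with any CUT&RUN edge peak, 33.3% of the splicing list, 33.3% of the Mediator and polymerase list, 28.6% of the nuclear pore list and 36.8% of the repair list had a member, and the intervals of all 4 include the 43.1% of all genes.

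Zinc finger genes and solute carriers, both large families, had shares whose intervals held the background of 11.8%. Zinc finger genes named Zfp had members at 46 of 396 (11.6%, 8.63 to 15.2), led by Zfp664 with 42, Zfp322a with 40 and Zfp91 with 40. Solute carriers had members at 49 of 375 (13.1%, 9.83 to 16.9), with Slc1a4 at 46, Slc25a44 at 46 and Slc9a3r1, a scaffold protein whose symbol fits the family's pattern, at 44. Ubiquitin-specific peptidases had members at 11 of 47 (23.4%, 12.3 to 38), with Usp48 and Usp5 at 44 and Usp21 at 32. Rab GTPases had members at 13 of 59 (22%, 12.3 to 34.7). Rab5b of early endosomes led with 76, Rab37 had 44 from the peak it shares with Slc9a3r1, and Rab1a had 29. Autophagy and lysosome genes had members at 8 of 30 (26.7%, 12.3 to 45.9), with Gabarap at 38, Atg3 at 31 and Ulk1 at 22. The summit at Gabarap lay 719 bp beyond the gene's end. Shared peaks lay at 16 of these peptidases, 18 Rab GTPases and 11 autophagy and lysosome genes. Of the genes with any CUT&RUN edge peak, 45.8%, 44.8% and 47.1% of these lists had a member. Their intervals include the 43.1% of all genes. Among solute carriers this share was 54.4% (43.6 to 65), and among zinc finger genes 40% (31 to 49.6). Families not known for a role in T cells had almost no CUT&RUN edge peaks of either class. Olfactory receptors had members at 1 of 1110 (Olfr283, pileup 16) and shared peaks at 1. Keratins had members at none of 105, which allows up to 3.45%, and shared peaks at 1.

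Among T cell genes, receptor signalling genes had members at 11 of 32 (34.4%, 18.6 to 53.2), against 11.8% of all protein-coding genes. Shared peaks lay at 15. A member lay at 52.4% (29.8 to 74.3) of the 21 with any CUT&RUN edge peak. That interval includes the 43.1% of all genes. The highest was at Malt1, a scaffold protease that signals to NF-kB, with a pileup of 66 (51 to 84) about 149 bp outside the gene. Cd2, an adhesion receptor, had 41 and Cd6, a scavenger-type receptor, 28, and both of these genes also had a shared edge peak. None of the 3 stretches of this list that could be read held a CCAAT box or a RUNX core.

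The CD8 coreceptor genes each had a member. At Cd8b1 on chromosome 6 (71322788 to 71337492) the summit at 71322600 lay 188 bp outside the gene, with a pileup of 34 (23.5 to 47.5), and the gap from this peak to the nearest ChIP peak was 5837 bp. At Cd8a (71373427 to 71379171) the summit at 71373367 lay 60 bp upstream of the start, with a pileup of 27 (17.8 to 39.3), and the gap to the nearest ChIP peak was 3536 bp. The Cd8a stretch printed above holds neither a RUNX core nor a CCAAT box. These were the 2 of 10 coreceptor and lineage genes with a member (20%, 2.52 to 55.6), and 3 had a shared edge peak. The interval includes the 11.8% of all protein-coding genes. The RUNX family and its corepressors were mostly on the shared side. Tle3, a Groucho corepressor, was the only one of 18 with a member, at a pileup of 19 (11.4 to 29.7), 23 bp upstream of its start, and 10 had a shared edge peak. Of the 11 with any CUT&RUN edge peak, 9.09% (0.23 to 41.3) had a member, against 43.1% of all genes. Over all 18 the share was 5.56% (0.141 to 27.3), and its interval includes 11.8%.

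Cytotoxic genes had members at 4 of 25 (16%) and shared peaks at 6. Ctsc, the protease that activates granzymes, had a pileup of 23, Fasl, a death ligand, 22, and Ifng, encoding interferon gamma, 17, the last of these 218 bp upstream of the start. Cytokine receptors and signalling genes had members at 7 of 37 (18.9%) and shared peaks at 21. Socs3, an inhibitor of cytokine signalling, had 34, Stat3 24 and Tgfbr2 17. Naive, memory and effector factors had members at 5 of 34 (14.7%) and shared peaks at 7, with Nr4a1 at 25, Id3 at 22 and Bcl6 at 18. Chemokine receptors, integrins and trafficking genes had members at 5 of 24 (20.8%), with Cxcr6 at 37, Itgb2 at 28 and Itgb7 at 25. Inhibitory and costimulatory receptors had members at 1 of 20, Ctla4, whose higher peak had 30. Apoptosis genes had members at 1 of 23, Diablo, which antagonises inhibitors of apoptosis, with a pileup of 41 and a CCAAT box within 50 bp of the summit, and shared peaks at 12. With so few genes, the intervals of these lists reach the background of 11.8%. Of the 13 apoptosis genes with any CUT&RUN edge peak, 7.69% (0.195 to 36) had a member, below the 43.1% of all genes. For the other lists of this paragraph, the intervals of that share include 43.1%.

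Markers of cell types describe occupancy here and not which cells were present. Members lay at 5 of 10 CD8 T cell markers (50%, 18.7 to 81.3), among them Cd2, Cd8b1 and Cd8a, and shared edge peaks at 4. A member lay at 71.4% (29 to 96.3) of the 7 with any CUT&RUN edge peak. That interval includes the 43.1% of all genes. Members lay at none of 9 CD4 T cell, 8 NK cell, 12 erythroid or 13 hepatocyte markers. This allows shares of up to 33.6%, 36.9%, 26.5% and 24.7%, all above the background of 11.8%. Shared edge peaks lay at 1 of these NK cell markers and at none of the CD4 T cell, erythroid or hepatocyte markers. Single markers of other cells had a member, namely Pou2af1 of B cells (1 of 14, pileup 33), Xcr1 of dendritic cells (1 of 8, 35), Itgam of monocytes and neutrophils (1 of 13, 31) and Tubb3 of neurons (1 of 13, 16). The summit at Xcr1 lay 329 bp beyond the gene's end.

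The 10 highest members whose nearest gene was protein-coding had pileups from 73 to 105, which leaves out the peak near Rps29. Gm40364 had 105, Cables2, an adaptor of cyclin-dependent kinases, 98, and Cic, a transcriptional repressor, 94, with a gap of 185 bp to a ChIP peak. Taf6l, a subunit of histone acetyltransferase complexes, had 86, Thop1, a peptidase, 85, Rnf26, a ubiquitin ligase, 82, and Qtrt1, which modifies tRNA, 80. Rab5b had 76, Gimap9, an immune-associated GTPase, 75, and Pla2g6, a phospholipase, 73. Their Poisson intervals overlapped in large part, as at 98 (79.6 to 119) and 73 (57.2 to 91.8), so the order is not resolved. For Gm40364, Qtrt1 and Gimap9 the nearest edge was the gene's end. A CCAAT box was present in all 4 of their stretches that could be read (Cables2, Taf6l, Thop1 and Rab5b), and a RUNX core in none.

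The highest members of all were at sequences with near copies elsewhere. The 3 top pileups, 351, 269 and 266, were next to each other on chromosome 1 (summits 24613130 to 24615602) at the pseudogenes Gm10222 and Gm10925. They were 986 to 1703 bp wide with folds of only 3.5 to 4.61. The RefSeq table gives Gm10925 the name of a mitochondrial gene as a synonym, and the 19 CUT&RUN peaks on the mitochondrial genome itself had pileups from 270 to 508 and folds from 1.66 to 3.82. Whether reads of mitochondrial origin contribute was not tested. On chromosome 6, 4 members between 47655215 and 47757880, at Rn4.5s, Gm40364, Gm52861 and Gm52862, had pileups from 86 to 109 and folds from 14.2 to 21.9. Rn4.5s is a gene of the 4.5S small RNA, which is present in tandem copies. How reads that match several copies were placed is not given in the sources used here, so these heights are uncertain.

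The V segments of antigen receptor genes differed by locus. Members lay at 20 of 183 immunoglobulin heavy chain V segments (Ighv), 10.9% (6.8 to 16.4), with pileups from 13 to 41 and a median of 21.5, and shared edge peaks lay at 19. All 20 were nearest to the edge of lower coordinate, 12 within 20 bp and 18 within 60 bp of it. T cell receptor alpha V segments (Trav) had members at 11 of 130 (8.46%, 4.3 to 14.6), with a median pileup of 17. Of these 11, 7 were nearest to the lower edge and none lay within 20 bp of an edge, with a median distance of 112 bp. Beta V segments (Trbv) had members at 3 of 35, at a median distance of 487 bp. Kappa V segments (Igkv) had none of 162, which allows up to 2.25%. Over all RefSeq genes, 6.56% had a member. V segments resemble one another, so reads can be shared among copies. This breakdown was made after the values were seen.

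Among short non-coding genes, tRNA genes had members at 16 of 408 (3.92%) and shared peaks at 36, with n-TRcct1 at a pileup of 49, n-TAagc9 at 45 and n-TAagc8 at 27. MicroRNA genes had members at 26 of 1180 (2.2%), with Mir6236 at 41, Mir7094-1 at 31 and Mir1956 at 30, the last from the peak inside Eif4e. Small nucleolar RNAs had members at 10 of 132 (7.58%), led by Snord59a with 34, from the Atp5b peak, Snord14a with 29 and Snora57 with 25. Their host genes had members at 2 of 17, Snhg16 with 15 and Snhg7 with 10, and shared peaks at 10. All but the host genes compare with 6.56% over all RefSeq genes, and many overlap or neighbour a protein-coding gene.

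Few genes had several members. The most was 3, at Gm10925, Alkbh2, Slc16a5, Gm40237 and Exoc3l. At Alkbh2, a DNA repair demethylase, the summits lay 449 and 134 bp inside and 456 bp upstream of the start, with pileups of 18, 16 and 41. At Slc16a5, a monocarboxylate carrier, they had 28 and 18 at one edge and 25 at the other. At Exoc3l they had 14, 21 and 12, and at the non-coding gene Gm40237 15, 26 and 18.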

How the data were processed

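Runx3 occupancy was measured in splenic CD8 T cells, with 1 ChIP and 1 CUT&RUN library against Runx3. Per the submitters' processing notes, the authors aligned reads with Bowtie to mm10, in a version not given in the sources used here. Peaks were called with MACS2 2.1.1.20160309 on each Runx3 library separately, per the file headers. The whole cell extract was the control for ChIP, and CUT&RUN had none. Per the file headers, 48285251 ChIP fragments became 9532996 after duplicate removal (80.3% removed) and 17896991 CUT&RUN fragments became 14068364 (21.4% removed), with mean fragment sizes of 115 and 63 bp.

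The deposited pileup is a coverage signal that counts fragments over the summit. The deposited lists also hold −log10 p and q values, with the q used for the alternatives, and a fold enrichment, the ratio of pileup to the local background, as the authors' peak caller wrote them.

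Peaks were shared at an overlap of at least 1 bp, checked with bedtools 2.31.1. Gene spans came from RefSeq GRCm38.p6 (49554 genes, 21631 of them protein-coding), and strand from 32619 promoter windows of 300 bases, which cover 17274 protein-coding genes. Chromosome 18 has no promoter windows in the table used. No genome was used here, so motifs were read within these windows only. Shares have exact 95% Clopper-Pearson intervals, differences of shares Newcombe intervals and pileups exact Poisson intervals. None covers more than counting error, and PCR copies are not separate molecules. With 1 library per assay there is no test and no p-value. The overlap, gap, gene edge, motif and window sequence steps were tested on simulated data, and the intervals were not (Python 3.11.15, scipy 1.17.1, statsmodels 0.14.6).

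The members, the 40 gene lists and the motifs were chosen with earlier results of these data known. The genes named are the 10 highest protein-coding and 5 highest non-coding members, up to 3 per list by pileup, all members of the coreceptor and RUNX lists, the 5 genes with the most members, and the peaks next to the limits. Some genes that this rule takes are not reported here. Of the 11 motifs searched, 8 were listed at the start. The E-box, YY1 core and octamer were added after the data were seen, as were the splits by pileup, GC content and position, the V segment counts and the alternatives for the CCAAT box. The pattern for histone symbols was narrowed after a first count, because it took in genes that are not histones.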

Additional observations from a re-analysis of the deposited data

Results flagged for a closer look

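Peaks outside chromosomes 1 to 19 and X entered no comparison above. On the mitochondrial genome, 19 CUT&RUN peaks overlapped no ChIP peak, with pileups from 270 to 508 and a median of 360. On chromosome Y there were 14 such peaks, with pileups from 13 to 96 and a median of 27. On contigs not placed on a chromosome there were 16, from 12 to 83 with a median of 45. They are listed because signal is present in data outside the main measurement; a control CUT&RUN library was not analysed here.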

How the results depend on the processing

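Of 55 alternative values, 34 stayed within 1.5 times the count or within the 95% interval of the value reported, and 21 moved. No paired analysis was possible because each assay had 1 library. With CUT&RUN peaks at q of 1e-10 or less, the median pileup was 20, the share at genes with a peak in both assays 34.7%, the CCAAT share 47.8% and the share of protein-coding genes with a member 10.2%. Counting ChIP peaks within 200 bp as shared gave 34.6% at genes with a peak in both assays, 11.8% with a ChIP peak within 1 kb and 10.6% of protein-coding genes. Using only ChIP peaks at q of 1e-05 or less gave 29%, 10.3% and 16.1% for the same results, a RUNX share of 13.1% and 3648 members. With an edge distance of 500 bp, 95.1% were at starts, 83.8% at protein-coding genes, and 10.1% of protein-coding genes had a member; with 2 kb these were 88.8%, 79.2% and 13.8%. With protein-coding genes only, 94.3% were at starts. Within 50 bp of the summit the RUNX share was 8.26% and the CCAAT share 41.2%, and with TGTGGT alone the RUNX share was 5.66%. The CCAAT alternatives were chosen after the data were seen. A limit of depth is that a pileup of 18 has a wide Poisson interval (10.7 to 28.4), so single peaks near the median cannot be ordered. Motif content is known for only 52.7% of members.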
